A study of Mus musculus with 16 samples.

Results

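Open chromatin of skeletal muscle was compared between mice fasted for 24 h and mice fed ad libitum, using the list of accessible regions deposited for each state. These were 2 of the 16 libraries of the series, which covered 8 tissues in both states with 1 library each. Each library was made from frozen tissue powder of 3 male C57BL/6 mice, 12 weeks old when acquired and kept on standard chow, pooled in equal proportions. The labels name the tissue only as muscle, so the muscle or mixture of muscles sampled is not known. With 1 pooled library a state there is no replicate error: no fasting against fed difference could be tested, and every interval below is a 95% interval that covers counting error only. Intervals of shares take regions as independent, although regions of the same locus may not be, so they can be too narrow.

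ATAC-seq marks chromatin that a transposase can enter, which in the genome is mainly promoters, enhancers and the bodies of highly transcribed genes. When food is withdrawn, skeletal muscle moves from glucose to fatty acids and breaks down its own protein. Falling insulin lets FOXO factors enter the nucleus, glucocorticoids act through their receptor, and both are known to drive the ubiquitin ligases Fbxo32 (atrogin-1) and Trim63 (MuRF1), autophagy genes and Pdk4, the kinase that closes pyruvate dehydrogenase.

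The fed list held 182422 distinct regions, of which 159194 passed a q value of 0.01, and the fasting list held 171079, all of which passed. The fasting library was the deeper: the lowest number of tags expected by chance at a region was 6.388 in the fed and 10.56 in the fasting library, a ratio of 1.653. Of these sets, 49497 fasting regions (28.93%) were overlapped by no deposited fed peak and are called fasting-only, and 39269 fed regions (24.67%) were overlapped by no fasting peak and are called fed-only. Fasting-only regions were therefore 55.8% of the 88766 state-only regions, and this share is the background for the counts at single genes. Each list was limited to 300 K rows, and the fed list ended at a −log10 q of 1.576 and the fasting list at 2.799. Fasting peaks between that end and a q of 0.01 could thus be missing from the list, and a fed-only region can have such a peak. At a p of 1e-05 there were 43014 fasting-only and 21399 fed-only regions as deposited. Thinned to the depth of the fed library, an expected 20970 fasting-only regions remained, a fasting-only share of 49.49%. Only the fasting-only regions were thinned, and the fed-only regions are still those with no peak in the full fasting list. A fasting list called at that depth could hold other peaks and change the fed-only regions, so 49.49% is not a share at equal depth.

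The tissue label was checked against its markers. The promoters of Ckm, the muscle creatine kinase, and Acta1, skeletal alpha-actin, were open in both states, at a rank of 94.91 in the fed and 95.8 in the fasting list for Ckm and 93.71 and 92.23 for Acta1, where the rank is the percentile of a region's p value within its own list. All 20 skeletal muscle markers had an open promoter in both lists. Of the 8 heart markers, Myh6, Nppa, Nkx2-5 and Tbx20 had no open promoter, Tnni3 and Gata4 were open in both lists and Nppb and Myl7 in the fed list. Of the 10 adipocyte markers, Adipoq, Lep, Cfd, Retn and Ucp1 had none, Lipe, Pparg, Fabp4 and Plin1 were open in both lists and Cidec in the fed list. In such bulk libraries, fewer nuclei of a type and less open chromatin per nucleus cannot be told apart.

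The sequences of 7 regions are shown first, because they carry the motif words and the genes to which the results return. The first pair are regions of both lists with at least 20 fed tags and no exon in the window: of those with a FOXO or an AP-1 word close to the summit, they had the highest scaled fold. The others are the strongest state-only regions of their gene with such a word. All were chosen for holding a word, so its presence in them is no result. Each is 121 bases of GRCm38 centred on the summit, printed on the plus strand, with FOXO (TGTTTAC), glucocorticoid receptor (ACANNNTGT), AP-1 (TGANTCA), MyoD E-box (CAGCTG) and MEF2 (TAAAAATAG) words on either strand in capitals. In the fed-only Mef2c region, chosen for its E-box, an AP-1 word overlaps it.
Doc2b, chr11:75796595-75796715: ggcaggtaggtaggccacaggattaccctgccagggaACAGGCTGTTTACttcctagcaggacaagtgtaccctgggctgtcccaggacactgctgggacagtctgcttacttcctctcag
Elk4, chr1:132010770-132010890: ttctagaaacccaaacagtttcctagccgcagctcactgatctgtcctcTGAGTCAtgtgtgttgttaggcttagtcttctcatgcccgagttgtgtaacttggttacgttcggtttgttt
Foxo1, chr3:52297694-52297814: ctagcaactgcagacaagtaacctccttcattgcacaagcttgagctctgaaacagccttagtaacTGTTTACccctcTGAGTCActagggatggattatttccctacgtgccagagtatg
Cebpd, chr16:15897806-15897926: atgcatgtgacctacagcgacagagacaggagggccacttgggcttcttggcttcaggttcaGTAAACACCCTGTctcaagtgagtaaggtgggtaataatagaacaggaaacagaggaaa
Fkbp5, chr17:28408328-28408448: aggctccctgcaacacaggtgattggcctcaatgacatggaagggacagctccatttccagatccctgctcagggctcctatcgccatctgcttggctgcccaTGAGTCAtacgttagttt
Fbxo32, chr15:58219423-58219543: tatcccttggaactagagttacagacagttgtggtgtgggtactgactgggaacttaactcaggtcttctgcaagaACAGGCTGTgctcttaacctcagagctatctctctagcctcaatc
Mef2c, chr13:83578469-83578589: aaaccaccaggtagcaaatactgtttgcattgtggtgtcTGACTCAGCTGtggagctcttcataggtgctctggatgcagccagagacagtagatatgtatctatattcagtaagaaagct

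The Doc2b region had 20 summit tags in the fed and 291 in the fasting library, 8.857-fold more after scaling, and in it a glucocorticoid receptor word and a FOXO word share bases. It lies 606 bp from a start of Doc2b, a calcium sensor of vesicle fusion that takes part in insulin-stimulated glucose transport, within an intron of the non-coding gene Gm12339. The Elk4 region, in an intron of that ETS-factor gene, had 57 and 498 tags, 5.318-fold more after scaling. The Foxo1 region had 190 fasting tags and lies in an intron of Foxo1, 29418 bp from its start, with a FOXO word and an AP-1 word. In the Cebpd region, with 167 fasting tags and 9450 bp from the start of that stress-responsive C/EBP factor in an intron of the neighbouring gene Spidr, a FOXO word and a glucocorticoid receptor word again overlap. The Fkbp5 region had 139 fasting tags and lies in an intron, the Fbxo32 region had 179 and lies in an intron of the non-coding gene Gm15943, and the Mef2c region had 29 fed tags.

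Genes of muscle atrophy and autophagy had the highest share of fasting-only regions of the 16 lists examined. The lists and their members were chosen with earlier results of these data known, so the order of the lists is not independent of those results. Assigned to the nearest protein-coding start, 256 fasting-only and 53 fed-only regions lay by the 21 genes of that list, so 82.85% were fasting-only (78.17 to 86.88), against the 55.8% of all state-only regions. Of the 256, 71 lay by Foxo1, 39 by Fbxo32 and 29 by Foxo3, so these loci weighed heavily on the share. Of the 21 genes, 19 had more fasting-only than fed-only regions and 2 had fewer, while of all 17149 protein-coding genes with any region 38.65% had more fasting-only and 31.07% more fed-only regions. Of the 17149 genes, 5192 had as many of each. Fbxo32 had 39 fasting-only and 2 fed-only regions, and the set of regions nearest to it numbered 12 in the fed and 52 in the fasting list. At a p of 1e-05, with only the fasting-only regions thinned to the depth of the fed library, 82.34% of the list's state-only regions were fasting-only, against 49.49% of all. The 39 fasting-only regions of Fbxo32 held 27 to 544 tags at the summit, with a median of 374 tags, a median rank of 49.35 and a median distance of 18.46 kb from the start, and 0 of them lay within 1000 bp of the start.

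Foxo1, the FOXO factor that drives many of these genes, had 71 fasting-only and 10 fed-only regions, and its relative Foxo3 had 29 and 7. Gadd45a, a stress-induced gene linked to muscle atrophy, had 16 and 5, and Psmd11, a proteasome lid subunit, also had 16 and 5. Counts were read within a gene, as fasting-only against fed-only, and not between genes of different length. All 4 genes stood on the fasting side, although the lower ends of the intervals of Gadd45a and Psmd11 (both 52.83%) fell below the 55.8% of all regions.

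**Figure D1:**
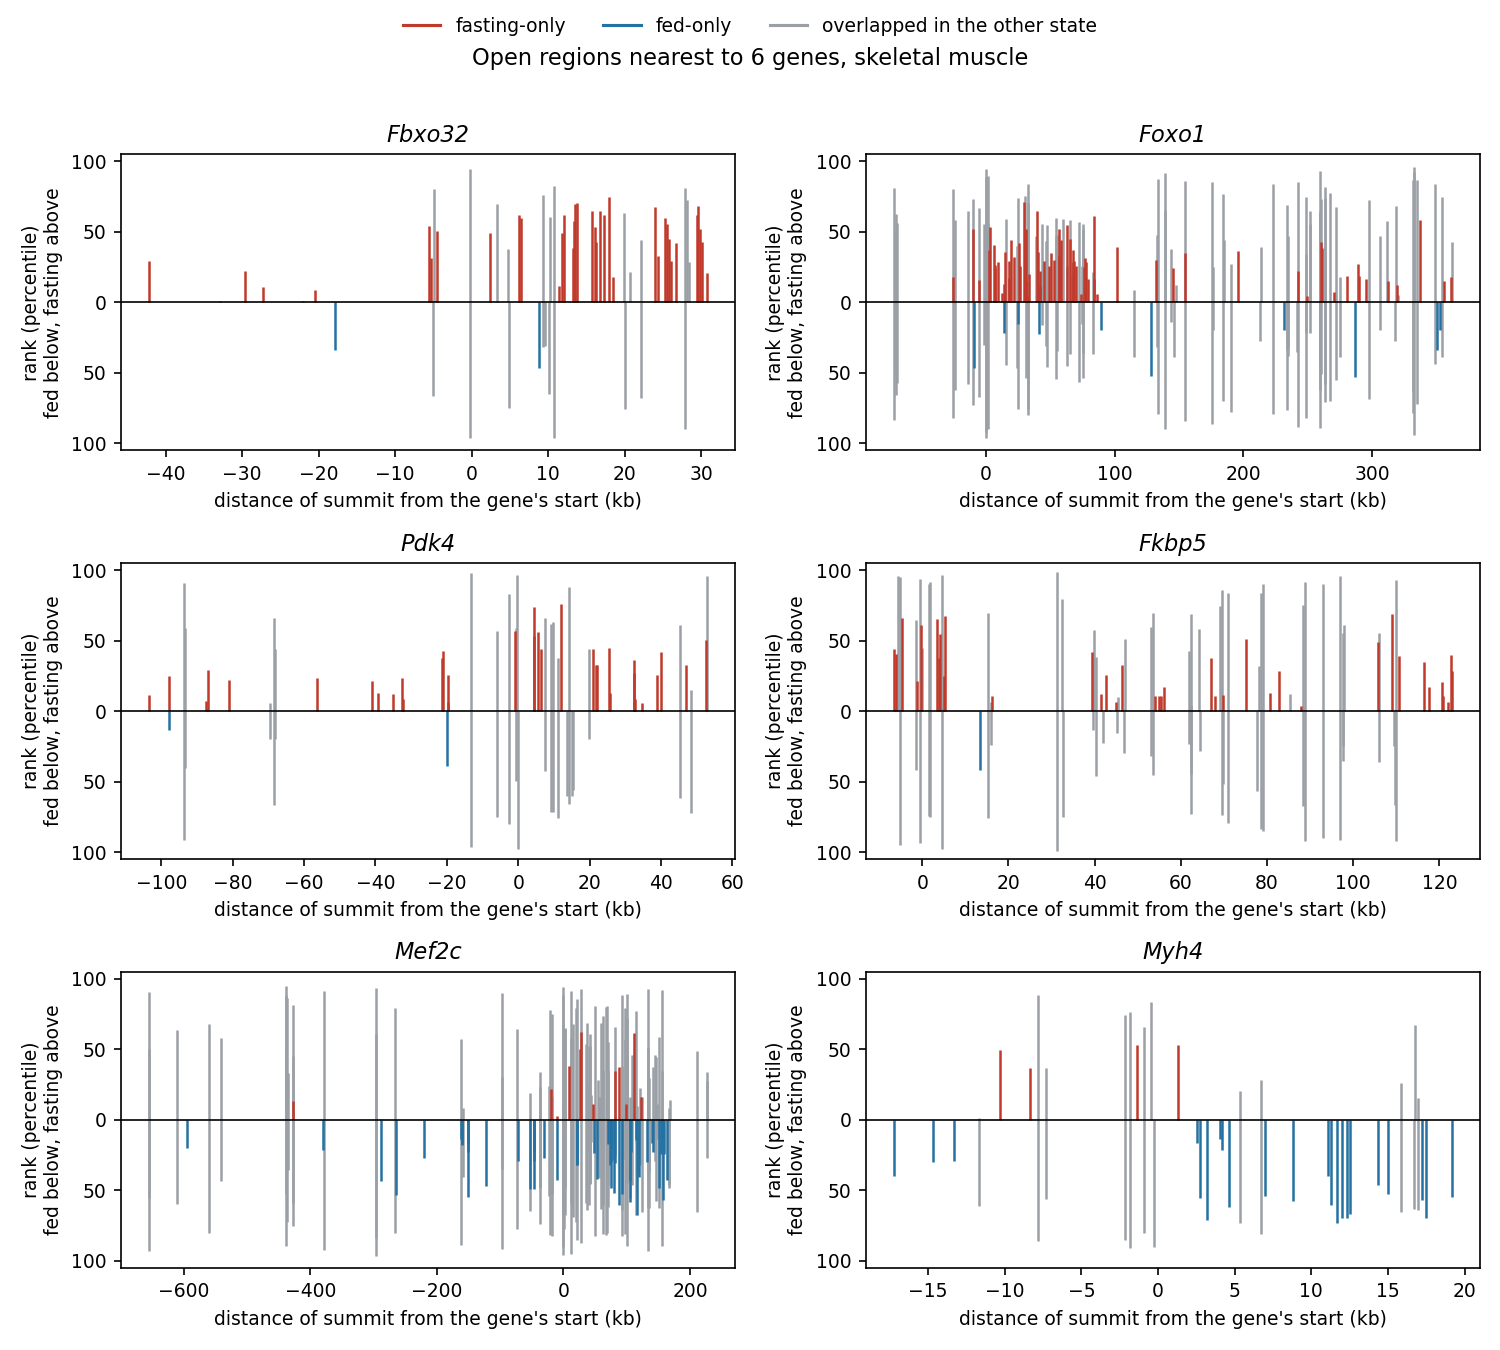
Open regions whose nearest protein-coding start belongs to Fbxo32, Foxo1, Pdk4, Fkbp5, Mef2c or Myh4, placed by the distance of the summit from the gene's start in kb and drawn as high as their rank within their list, with the fasting library above the line and the fed library below. Red lines are fasting-only, blue lines fed-only and grey lines regions overlapped in the other state: Fbxo32 has 39 red and 2 blue lines, and Myh4 has 4 red and 22 blue.

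The promoters of these genes were open in both states and differed less. Fbxo32 had 377 fed and 789 fasting tags at its promoter summit, 1.282-fold more (1.133 to 1.454) once divided by the median ratio over the promoters open in both lists, 1.632. Trim63 had 293 and 635 tags, 1.328-fold more (1.154 to 1.53). Foxo1 had 383 and 649 tags, a scaled fold of 1.038 (0.9137 to 1.181), an interval that holds 1. In this list 1 of 21 promoters, that of the autophagy gene Gabarapl1 (169 and 451 tags, 1.635-fold), was 1.5-fold or more higher and 0 were as much lower, where 2.29% and 2.02% of all 14112 promoters open in both lists were. A shift in rank of 10 points or more was seen at 0 of the 21, against 3.84% of 14934 promoters upward and 7.35% downward, but with a median fed rank of 96.14 most of these promoters had no room for such a shift upward.

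Differences were larger in the chromatin around the promoters. For regions present in both lists, the peak caller's expected number of tags gives the local level. It is the tag density of a window that includes the region itself and whose width is not stated. Ratios of fasting to fed level were divided by their median, 1.653, which is also the ratio of the lowest levels of the 2 libraries. Regions at the lowest level in both libraries thus have a fold of 1.0, and genes made up of them count among all genes. A gene's fold is the median of its regions' folds and its 2 levels are separate medians, so the fold is not their exact ratio. The second highest fold of the 7063 genes with at least 5 regions of both lists was at Fbxo32. There the median local level went from 39.65 expected tags in fed to 263.3 in fasting muscle, 3.861-fold after scaling. At Trim63 it went from 51.06 to 288.3, or 2.476-fold, at Ddit4, an inhibitor of mTORC1, from 16.78 to 98.46, or 2.757-fold, and at Eif4ebp1, which holds back translation, from 39.42 to 126.7, or 2.042-fold. Of the 15 atrophy and autophagy genes that could be measured, 10 were 1.5-fold or more higher in local level and 0 were as much lower, where 2.05% of the 7063 genes were higher and 1.32% lower. Others of the 10 were Foxo3 (1.876-fold), Klf15, a glucocorticoid-induced factor of muscle protein breakdown (1.735-fold), Sqstm1, the autophagy receptor p62 (1.717-fold), and Bnip3 of mitophagy (1.593-fold).

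The summit tags of regions in both lists had the same direction. Near the atrophy and autophagy genes, 131 of 272 such regions (48.16%) had 1.5-fold or more scaled tags in fasting and 4 (1.471%) as many fewer, where of all 116538 regions of both lists 12% were higher and 8.57% lower. By gene, 7 of the 15 had a median of 1.5-fold or more, where 2.21% of genes did and 1.43% were as much lower. Fbxo32 had 8 of 10 regions higher and 0 lower, and Foxo1 46 of 78 higher and 1 lower.

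Genes beside these loci had the same direction. The highest local fold of all genes was at Wdyhv1, a neighbour of Fbxo32, where the level went from 19.49 to 209.7 expected tags, 6.507-fold. Klhl38, from the same stretch of chromosome 15, was 2.08-fold higher, and Anapc16 and Dnajb12, beside Ddit4 on chromosome 10, were 2.36-fold and 2.092-fold higher. A region's nearest start does not say which gene it acts on. Clip1, which encodes a microtubule plus-end protein, was 2.98-fold higher with 70 fasting-only and 9 fed-only regions, Ucp2, a mitochondrial carrier, 2.664-fold, and Il6ra, the interleukin-6 receptor, 2.582-fold. At the other end, outside the muscle markers, Cish, an inhibitor of cytokine signalling, had a local fold of 0.4131, with 7 of 9 regions 1.5-fold or more lower, and Mylk4, a myosin light chain kinase, one of 0.4828, with 47 of 60 lower. The genes of this paragraph were chosen after their values were seen.

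**Figure D2:**
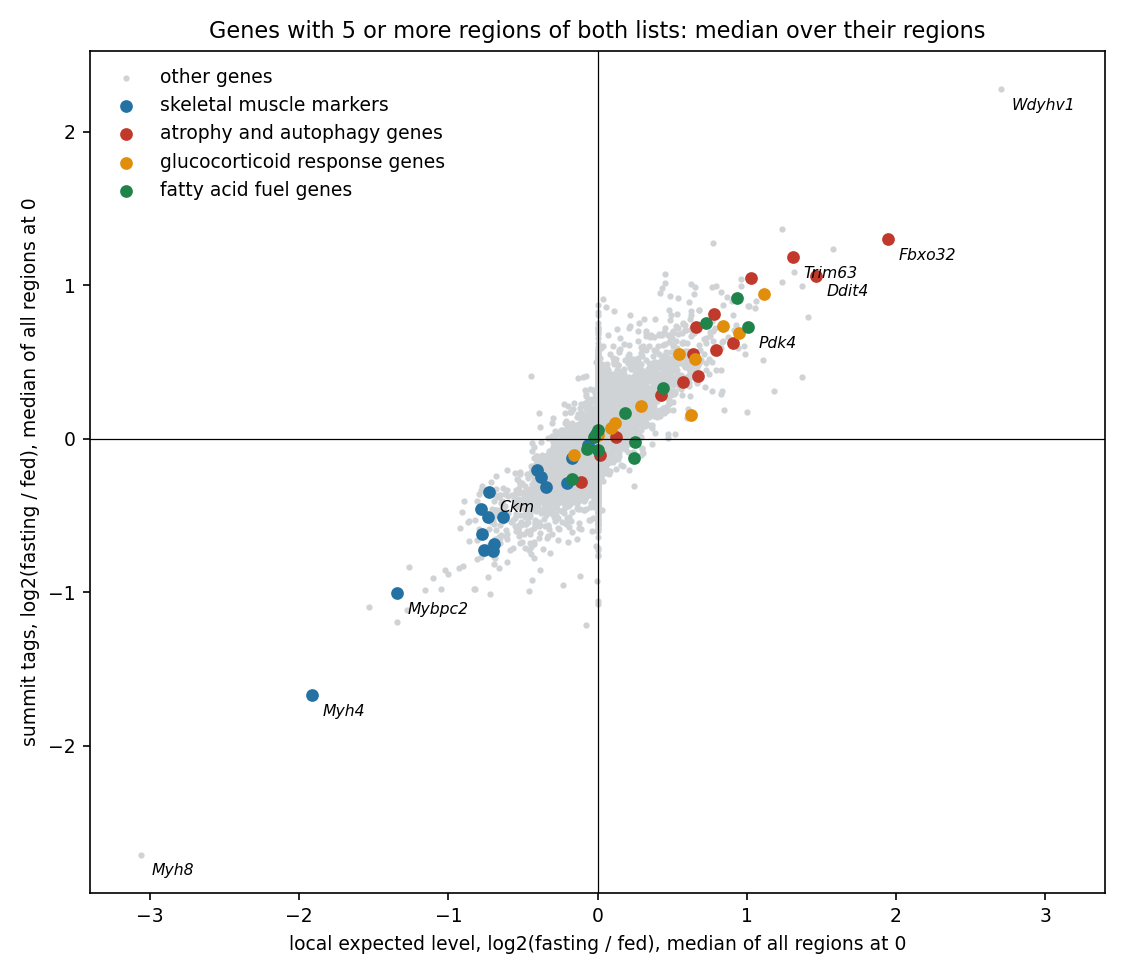
Each point is a protein-coding gene with 5 or more regions of both lists, at the median log2 ratio of fasting to fed of the local expected level (horizontal) and of the summit tags (vertical), each with the median of all regions set to 0. The 2 measures share tags. Fbxo32, Trim63 and Ddit4 lie at the upper right and Myh4 and Mybpc2 at the lower left, with local folds of 3.861, 2.476, 2.757, 0.2652 and 0.3944.

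Genes of fatty acid use had the next highest share, with 142 fasting-only and 39 fed-only regions, 78.45% fasting-only (71.74 to 84.21) against 55.8% of all. Pdk4 had 36 and 2, Cd36, the fatty acid transporter, 35 and 6, and Ppargc1a, the coactivator of mitochondrial genes, 17 and 9. The interval of Ppargc1a (44.33 to 82.79) holds the 55.8% of all. Of the 20 genes of the list 14 had more fasting-only and 1 had more fed-only regions, against 38.65% and 31.07% of all protein-coding genes. Pdk4's 36 fasting-only regions had 26 to 457 tags and reached 103.4 kb from its start.

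In local level, 3 of the 12 measured genes of this list were 1.5-fold or more higher and 0 as much lower, against 2.05% and 1.32% of all genes: Pdk4 (22.31 to 79.37 expected tags, 2.015-fold), Angptl4, an inhibitor of lipoprotein lipase (15.25 to 48.73, 1.915-fold), and Cd36 (8.183 to 23.47, 1.656-fold). The median fold over the 12 was 1.159, and this rise was absent when only regions above 1.5 times the lowest level were used. Angptl4 was also the 1 promoter of the list with a 1.5-fold higher count, 159 fed and 458 fasting tags, 1.765-fold (1.47 to 2.127). Ppara, the nuclear receptor that responds to fatty acids, had a local fold of 0.8893, and Lpl, lipoprotein lipase, of 1.0. At Etfdh, of the electron transfer chain for fatty acid oxidation, the promoter ranked 99.99 and 99.98, with 716 and 1072 tags and a scaled fold of 0.9174 (0.8338 to 1.01).

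Glucocorticoid response genes had 201 fasting-only and 69 fed-only regions, 74.44% fasting-only (68.81 to 79.54). Of the 12 genes, 10 had more fasting-only and 1 more fed-only regions, where 38.65% and 31.07% of all protein-coding genes did. Fkbp5, a chaperone of the glucocorticoid receptor and a standard readout of its activity, had 40 fasting-only regions and 1 fed-only region. Cebpd had 31 and 1, and Zbtb16, a transcription factor induced by glucocorticoids, 50 and 8. With 40, 31 and 50 of the 201 fasting-only regions, Fkbp5, Cebpd and Zbtb16 weighed heavily on the share of the list. The intervals of Nr3c1 (28 and 16), Tsc22d3 (12 and 3), Dusp1 (12 and 5) and Errfi1 (9 and 5) hold the 55.8% of all regions. Sgk1, a kinase induced by glucocorticoids, was the 1 gene of the list with more fed-only regions, 12 fasting-only against 29 fed-only. Of the 11 measured genes, 5 were 1.5-fold or more higher in local level and 0 as much lower, against 2.05% and 1.32% of all genes, led by Fkbp5 (14.57 to 52.15 expected tags, 2.166-fold) and Zbtb16 (32.46 to 112.8, 1.927-fold).

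The metallothioneins Mt1 and Mt2 were 1.572-fold and 1.546-fold higher in local level. The glucocorticoid receptor gene itself, Nr3c1, stood at 1.065, and its promoter had 487 and 761 tags, a scaled fold of 0.9574 (0.8534 to 1.075). Dusp1, a phosphatase induced by the same hormone, had a local fold of 0.8955. Of the 12 promoters 0 reached 1.5-fold in either direction, where 2.29% of all promoters open in both lists were higher and 2.02% lower. The largest scaled fold was that of Cebpd, 1.459 (1.301 to 1.638), from 423 fed and 1007 fasting tags.

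Insulin and glucose genes leaned to fasting less, with 228 fasting-only and 136 fed-only regions, 62.64% fasting-only (57.44 to 67.62). Of the 18 genes, 11 had more fasting-only and 6 more fed-only regions, where 38.65% and 31.07% of all protein-coding genes did. The insulin receptor Insr had 26 and 10, its substrate Irs2 29 and 14, and the PI3-kinase subunit Pik3r1 44 and 21. Hk2, a hexokinase, had 8 and 12 and the glucose transporter gene Slc2a1 2 and 5. The interval of each of these genes holds the 55.8% of all regions, so none of them alone is placed on a side. The growth factor Igf1 stood the other way in level, at a local fold of 0.6212. It was the 1 gene of 15 past 1.5-fold in local level, where 2.05% of all genes were higher and 1.32% lower. Clock genes had 146 and 98 regions, 59.84% fasting-only (53.39 to 66.04), an interval that holds the 55.8% of all. Arntl, of the positive arm of the clock, had 19 and 8, while the repressor gene Bhlhe40 had 4 and 9 and Hlf, a clock output factor, 3 and 7. The intervals of these genes hold the share of all regions too. All animals were sampled at 10 am. Amino acid and stress genes had 47 and 34 regions, near the background.

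**Figure D3:**
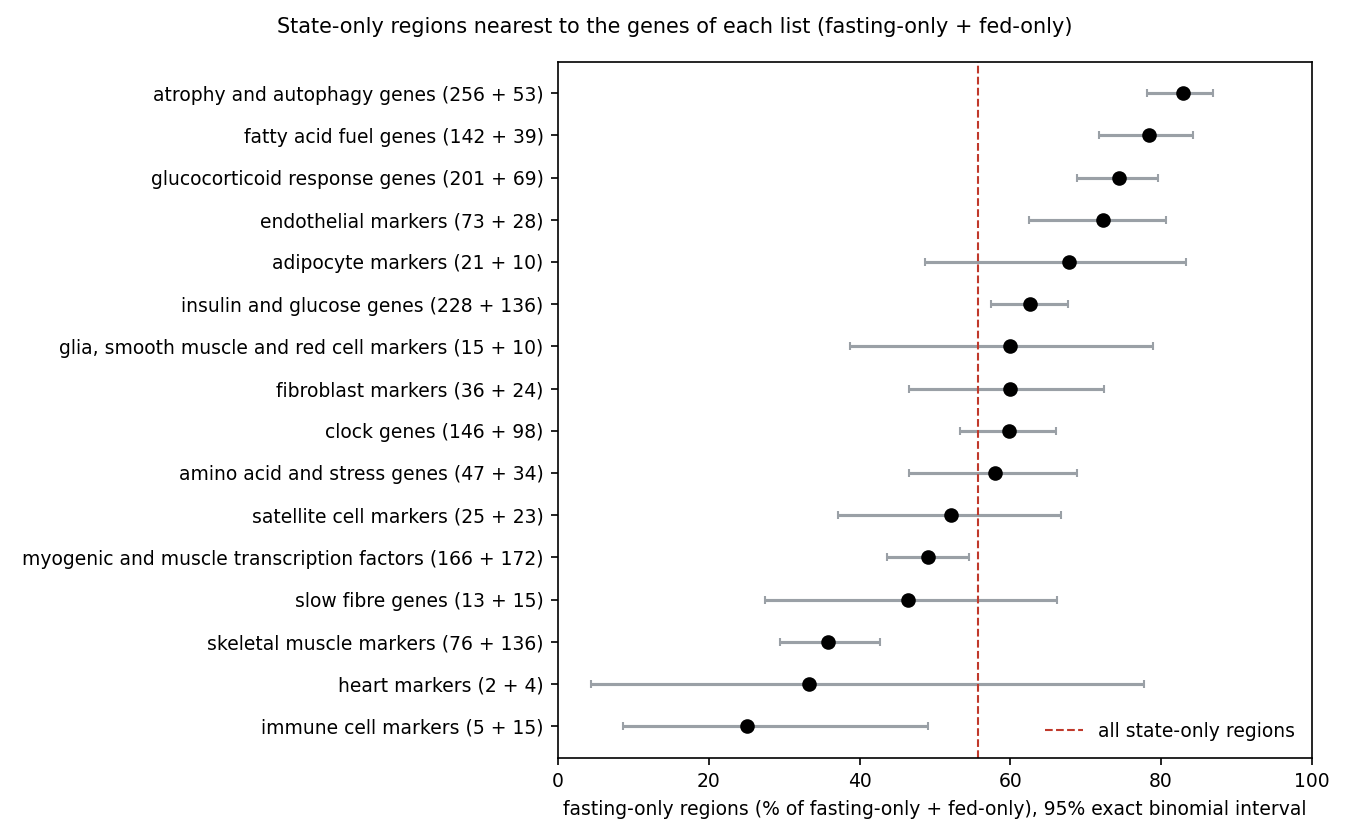
Share of state-only regions that were fasting-only, for the regions nearest to the genes of each of 16 lists, with 95% exact binomial intervals for counting error and the 2 counts beside each name. The dashed line is the share over all state-only regions, 55.8%: the atrophy and autophagy list lies at 82.85% and the skeletal muscle markers at 35.85%.

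The list of 20 skeletal muscle markers stood on the fed side. It had 76 fasting-only and 136 fed-only regions, 35.85% fasting-only (29.4 to 42.7), against the 55.8% of all. Of its genes, 15 had more fed-only and 4 more fasting-only regions, where 31.07% and 38.65% of all protein-coding genes did. At a p of 1e-05, with only the fasting-only regions thinned to the depth of the fed library, the share was 28.81%, against 49.49% of all. Myh4, the myosin heavy chain of the fastest glycolytic (IIB) fibres, had 4 fasting-only and 22 fed-only regions, Myh2, the IIA heavy chain, 3 and 12, Myh1, the IIX heavy chain, 1 and 8, and Ryr1, the calcium release channel, 8 and 23. The 4 were Ckm (2 and 1), Actn3 (3 and 1), Des (3 and 1) and Ttn, the titin gene, with 41 fasting-only and 29 fed-only regions. The interval of Ttn (46.17 to 70.23) holds the 55.8% of all regions, and its local fold was 0.7858.

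The local level gave the same picture. Of 17 measured muscle markers 10 were 1.5-fold or more lower in fasting and 0 as much higher, against 1.32% and 2.05% of all genes. Myh4 went from a median of 92.5 expected tags in fed to 27.27 in fasting muscle, and the median scaled fold of its regions was 0.2652. Of its 12 regions in both lists 11 were 1.5-fold or more lower and 0 higher. Mybpc2, fast myosin-binding protein C, went from 100.7 to 66.04 (0.3944), Actn3, the actinin of fast fibres, from 68.36 to 68.04 (0.6161), Pvalb, the calcium buffer parvalbumin, from 80.58 to 79.91 (0.6001) and Ckm from 112.9 to 112.4 (0.6049). Of the 2 fast troponin genes measured, Tnni2 stood at 0.994 and Tnnt3 at 0.8894, so the list did not shift as one. The lowest local fold of all genes, 0.1197, was at Myh8, the perinatal heavy chain, whose nearest regions lie just past the end of Myh4 in the myosin cluster of chromosome 11.

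At the promoters the same genes were close between states, apart from a few. The Myh4 promoter had 338 fed and 209 fasting tags, a scaled fold of 0.3789 (0.3173 to 0.4515), Casq1, the calcium store protein of fast fibres, 383 and 407 (0.6511) and Myh2 43 and 42 (0.5985). These 3 were the members 1.5-fold or more lower and none was as much higher, where 2.02% and 2.29% of all promoters open in both lists were. The median over 20 was 0.8778. Myh1 stood at 1.051 (0.7938 to 1.401), with 81 and 139 tags.

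Genes of slow fibres had too few state-only regions to place, 13 fasting-only and 15 fed-only, or 46.43% fasting-only with an interval (27.51 to 66.13) that holds the 55.8% of all regions. Of their 55 regions in both lists 10 (18.18%) were 1.5-fold or more higher and 3 (5.455%) as much lower, against 12% and 8.57% of all. The difference from the muscle markers was not tested. In local level Tnni1, slow troponin I, stood at 1.289 and Myoz2, a Z-disc protein of slow fibres, at 1.205, while Casq2, the cardiac and slow calsequestrin, stood at 0.8842, and its promoter, with 194 fed and 187 fasting tags, had a scaled fold of 0.5906 (0.4805 to 0.7258). Myh7 and Tnnc1, the slow myosin and troponin C, had no open promoter in either list. The share of fast fibre nuclei in the 2 pools was not measured, and its part in these differences was not tested.

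The 15 myogenic and muscle transcription factors had 166 fasting-only and 172 fed-only regions, 49.11% fasting-only (43.66 to 54.58), below the 55.8% of all regions. However, 6 of them had more fasting-only and 5 more fed-only regions, where 38.65% and 31.07% of all protein-coding genes did. Mef2c had 12 and 48, the largest excess of fed-only regions of any gene, and its relative Mef2a 35 and 11. With 48 of the 172 fed-only and 12 of the 166 fasting-only regions, Mef2c weighed heavily on the share of the list. In other tissues Mef2c had 13 and 57 in liver, 3 and 25 in lung and 12 and 17 in heart. It had more fasting-only regions in brown (16 and 5) and white adipose tissue (13 and 7), spleen (70 and 55) and kidney (6 and 5). The Mef2c fed-only regions were small, with 18 to 50 tags and a median of 27.5. At promoters, Myod1, the myogenic master factor, had 383 fed and 385 fasting tags, a scaled fold of 0.6159 (0.5333 to 0.7114), and Tead1, of the Hippo pathway, 483 and 500 (0.6343). These 2 of 15 were 1.5-fold or more lower and 0 were as much higher, where 2.02% and 2.29% of all promoters open in both lists were.

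Markers of other cell types also differed between the libraries. The 10 endothelial markers had 73 fasting-only and 28 fed-only regions, 72.28% fasting-only (62.48 to 80.72), and 6 of the 9 promoters open in both lists were 1.5-fold or more higher, with a median of 1.587, where 2.29% of all promoters were. Pecam1 had 22 fed and 91 fasting tags (2.534-fold, 1.577 to 4.242), Sox17 22 and 80, Tie1 44 and 123, and Emcn had 47 tags in fasting and no fed peak. Their local levels had a median fold of 1.0 and ranged from 1.0 to 1.018 between the 8 genes measured. At Cdh5, Kdr, Tek and Sox17 the median levels were the lowest of the libraries, 6.388 fed and 10.56 fasting. A fold of 1.0 there follows from the scaling, and changes below that level cannot be seen. The summed tags of the 9 promoters were 331 in the fed and 830 in the fasting library, a scaled ratio of 1.536. The share of endothelial nuclei in each pool was not measured, and its part in the results was not tested.

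Immune cell markers stood on the fed side at low tag counts, with 5 fasting-only and 15 fed-only regions, 25.0% fasting-only (8.657 to 49.1). The promoters of Ptprc (CD45), Spi1 and Cd79a were open in the fed list alone, at 18 to 27 tags, and those of Cd68, Csf1r, Adgre1, Cd3e, Itgam and Lyz2 had no peak in either. The lowest summit count of any listed region was 16 tags in the fed and 26 in the fasting library, so these promoters lay near the end of the fed list. The share of immune nuclei was not measured, and its part in the results was not tested. Fed-only regions were also more often open in spleen, 29.96% (29.51 to 30.42) against 22.81% (22.44 to 23.18) of fasting-only regions, and among the 50000 strongest regions of the spleen libraries 11.79% against 5.035%. Fasting-only regions were more often open in heart, 26.05% against 20.89%. Fibroblast markers had 36 fasting-only and 24 fed-only regions, and the interval of the fasting-only share (46.54 to 72.44) holds the 55.8% of all, with Dcn at 25 and 74 promoter tags and Lum open in the fed list alone.

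The motif words of the changed regions were counted within 100 bp of the summit on both strands. FOXO words lay in 6.361% of the 13929 regions of both lists that were 1.5-fold or more higher in fasting and in 1.532% of the 9987 that were as much lower, a ratio of 4.152 (3.504 to 4.92), with 2.79% of all regions of both lists. AP-1 words, the sites of the Fos and Jun factors, lay in 16.57% of higher and 4.596% of lower regions, 3.605 times as often (3.273 to 3.972), with 8.16% of all. Glucocorticoid receptor words lay in 11.67% and 6.258%, 1.865 times as often (1.707 to 2.038), with 7.109% of all. The ATF4 word (TGATGCAAT), of the amino acid response, was rare, in 0.1759% of all, 0.4954% of higher and 0.02003% of lower regions, and its ratio of 24.74 has an interval from 6.066 to 100.9. The C/EBP word (TTGCGCAA) was rarer still, in 0.09611% of all regions, with a ratio of 5.497 (1.651 to 18.3). The TEAD word (ACATTCC) had a ratio of 1.687 (1.459 to 1.951), with 2.986% of all regions.

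In state-only regions the FOXO, AP-1 and glucocorticoid receptor ratios were smaller. FOXO words lay in 3.451% of fasting-only and 2.063% of fed-only regions, 1.673 times as often (1.54 to 1.817), AP-1 words in 9.419% and 5.233%, 1.8 times as often (1.712 to 1.892), and glucocorticoid receptor words in 8.156% and 7.031%, 1.16 times as often (1.107 to 1.215). On the other side, the ERR word (TCAAGGTCA), bound by estrogen-related receptors that drive oxidative genes, lay in 0.28% of higher and 0.751% of lower regions, a ratio of 0.3728 (0.2534 to 0.5485), with 0.4136% of all. The STAT word (TTCNNNGAA) had a ratio of 0.718 (0.6505 to 0.7924), with 5.203% of all, and the CTCF word (AGGGGGC) one of 0.601 (0.5218 to 0.6923), with 5.598%. The MyoD E-box lay in 19.57% of higher and 20.02% of lower regions, a ratio of 0.9778 (0.9285 to 1.03), with 18.24% of all. Base composition differed little, at a median of 49.75% G and C in higher, 51.24% in lower, 48.76% in fasting-only and 49.75% in fed-only regions. A word is a match of letters and not a bound site, and at the changed loci most regions had none: 5 of the 71 fasting-only regions at Foxo1 held a FOXO word, 0 of 39 at Fbxo32, and 5 of 40 at Fkbp5 held a glucocorticoid receptor word.

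**Figure D4:**
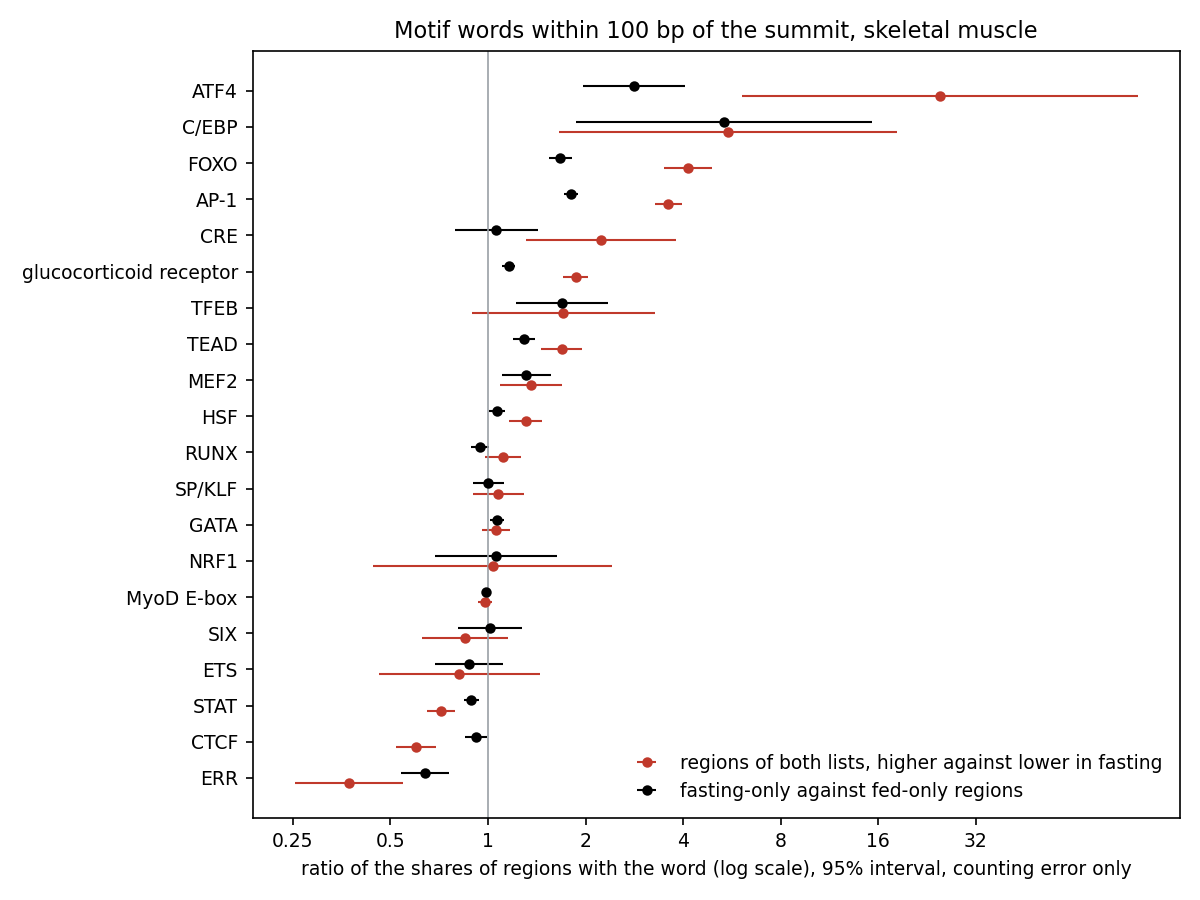
Ratio of the share of regions with a motif word within 100 bp of the summit, on a log scale with 95% intervals for counting error, for regions of both lists that were 1.5-fold or more higher against those as much lower in fasting (red) and for fasting-only against fed-only regions (black). FOXO lies at 4.152 and 1.673, AP-1 at 3.605 and 1.8, the MyoD E-box at 0.9778 and 0.9892, and ERR at 0.3728 and 0.6397.

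Of regions in both lists with at least 20 tags in the fed library, those with the highest scaled folds after the one at Doc2b lay 62402 bp from Cnksr3 (20 and 272 tags, 8.278-fold), in an intron of Slc7a2, a cationic amino acid transporter (30 and 407 tags, 8.258-fold), and 15396 bp from the integrin gene Itga5 (22 and 293 tags). Of the 10 with the lowest folds, 9 lay in the myosin cluster of chromosome 11, in Myh4 or between it and Myh8. The first of them had 241 fed and 45 fasting tags, a scaled fold of 0.1137. These regions were chosen after their values were seen.

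Most state-only regions were distal. Of fasting-only regions 13.03% (12.73 to 13.33) and of fed-only regions 14.72% (14.37 to 15.07) lay within 1000 bp of an annotated start, against 24.5% and 25.27% of the regions overlapped in the other state. State-only regions were also weak, at a median rank of 22.59 for fasting-only and 31.02 for fed-only regions, and 107 and 40 of them ranked 80 or higher. A peak of the other state lay within 200 bp of 23.77% of fasting-only and 22.45% of fed-only regions, so part of them lay beside a region open in the other state. The highest rank among fasting-only regions was that of an intron of Bptf, a subunit of the nucleosome remodelling factor NURF, at chr11:107089958-107090493, with 268 tags and a rank of 89.35, and the nearest fed peak was 3316 bp away. Others of the 10 strongest lay in introns of Ank3, Cblb, Cnst, Mical2, Tec and Lrrc58, near Adam25, and far from any protein-coding start, 612628 bp from that of Klf6.

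Among fed-only regions the highest rank was that of a region 3309 bp from the start of Foxo6, at chr4:120290542-120290816, with 238 tags and a rank of 87.7, and a fasting peak was 352 bp away. The other 9 lay nearest to Usp37, Eno1, Hemk1, Rfx4, Plxna1, Bsn, Rmi2, Tob1 and Slc7a11, the last with 69 tags at 166705 bp from the start. By number, Sox6 (122 fasting-only and 74 fed-only), Rbfox1 (117 and 54), Pde4d (111 and 98), Dmd (97 and 29) and Zbtb20 (86 and 37) had the most fasting-only regions, and Pde4d, Sox6, Trdn (69 fed-only and 48 fasting-only), Lpp (65 and 52) and Rbfox1 the most fed-only. In the gene of dystrophin, 175 fasting-only and 32 fed-only regions lay within the body of Dmd. Its median local fold was 1.315, from 6.389 to 15.31 expected tags.

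Among promoters with at least 20 summit tags in 1 or both libraries, the highest scaled fold was at Col15a1, a basement membrane collagen, from 39 to 232 tags (3.645-fold, 2.588 to 5.257). Depp1, a gene that FOXO factors induce, went from 101 to 494 (2.997-fold, 2.415 to 3.75). Doc2b (24 to 134), Slc5a2, Wfdc2, Ptprf, Rnf39, Lao1, Cngb1 and Lox, the collagen cross-linking enzyme, made up the other 8, at 3.421-fold to 2.72-fold. With a promoter window of 1000 bp the rank shift of Ptprf, 22.86 points as measured here, turned to -2.52. The lowest scaled folds were at Cyp4f14 (54 to 27 tags, scaled fold 0.3064, 0.1855 to 0.4949), Ttc22 (66 to 35) and Myh4. Wnt5a, Slain1, Stpg4, D430041D05Rik, Slc5a10, Cd74, which serves antigen presentation, and Myl10, a myosin light chain, followed, at scaled folds of 0.3846 to 0.4361. The rank shift of Stpg4 was -21.84 points, and 17.77 when regions were ranked by fold enrichment.

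The same lists were then counted in the other 7 tissues by the same rule, each against its own share of fasting-only regions. For atrophy and autophagy genes the muscle share lay 27.09 points above its background and the next highest, kidney, 15.43 points above, with heart at 7.98 and lung at -7.009. The interval of muscle overlapped those of kidney and white adipose tissue and not those of the other 5 tissues, and the differences between tissues were not tested. Fbxo32 had 39 fasting-only and 2 fed-only regions in muscle, 5 and 4 in heart, 10 and 3 in spleen, 1 and 4 in liver and at most 3 of either kind in each of the others. Pdk4 had 36 and 2 in muscle, 9 and 2 in heart, 14 and 2 in kidney, 14 and 3 in white adipose tissue, 8 and 1 in spleen, 7 and 1 in lung, 6 and 6 in liver and 0 and 7 in brown adipose tissue. For glucocorticoid response genes muscle lay among the other tissues, and the difference was 18.68 points in muscle, 24.8 in liver, 20.74 in white adipose tissue and 19.89 in kidney. For fatty acid fuel genes the difference was 22.69 points in muscle and 22.97 in lung. It was 18.02 in white adipose tissue, 16.6 in liver, 15.85 in heart, 9.95 in kidney, 2.375 in spleen and -16.95 in brown adipose tissue. For skeletal muscle markers it was -19.91 in muscle, -15.91 in kidney, -13.74 in liver, -9.495 in brown and -6.803 in white adipose tissue. In spleen it was -3.113, in lung 0.334 and in heart 2.746. Myh4 had 22 fed-only regions in muscle and at most 2 in any other tissue.

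**Figure D5:**
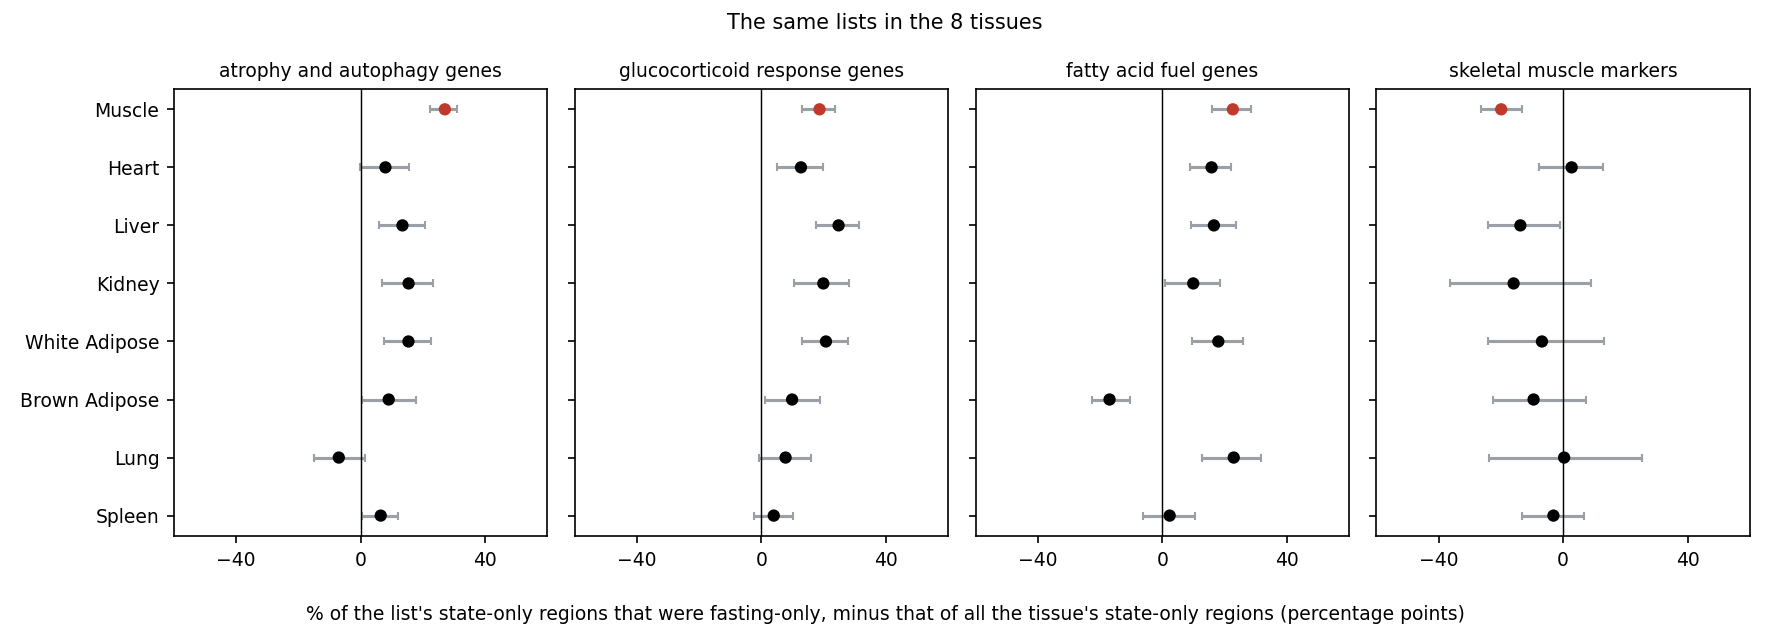
For 4 gene lists, the share of state-only regions that were fasting-only minus the same share over all state-only regions of that tissue, in percentage points with 95% exact binomial intervals for counting error, in the 8 tissues with 1 library a state. Muscle (red) lies at 27.09 points for the atrophy and autophagy genes. For the skeletal muscle markers muscle lies at -19.91, kidney at -15.91 and liver at -13.74. For the fatty acid fuel genes lung lies at 22.97, muscle at 22.69 and brown adipose tissue at -16.95.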

How the data were processed

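ATAC-seq peak lists of 16 libraries (8 tissues, fed and 24 h fasted, 1 pooled library each) were used as deposited. The submitters' processing notes name Bowtie2, MACS2 and GRCm38, with versions not given in the sources used here. By the names of the deposited files, duplicates and mitochondrial reads were removed, peaks were called at a p value of 0.01, a list was limited to 300 K rows and filtered. The deposited columns hold a fold enrichment (a ratio of summit tags to tags expected locally), a −log10 p value and a −log10 q value.

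Rows that shared their coordinates were merged under the best p value. Total depth is not given in the sources used here, so summit and expected tags were solved from the deposited fold and p value together, which gave whole tags within 0.001 for 99.76% of fed and 99.09% of fasting regions. Tag ratios were divided by their median over regions, or promoters (within 500 bp of a GENCODE start), of both lists. Regions were assigned to the nearest protein-coding start. Shares carry exact binomial (Clopper-Pearson) 95% intervals, and ratios of shares log-normal ones. Named were the genes of 16 lists, the 10 highest ranked regions of each state, the 10 promoters with the highest and the 10 with the lowest scaled folds (at least 20 tags in a library) and the 5 genes with the most regions of each state. The members and lists were chosen with earlier results of these data known. A few items that these rules name are not reported here. Alternatives changed the q threshold, list length, overlap, depth, ranking, windows and scaling. Scripts (Python 3.11.15, pandas 2.3.3, NumPy 2.4.6, SciPy 1.17.1, Matplotlib 3.10.9) were tested on simulated data.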

Additional observations from a re-analysis of the deposited data

Results flagged for a closer look

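In 3 gene lists another tissue lay on the other side of its own background from muscle, beyond counting error. The share of fasting-only regions at the fatty acid fuel genes lay 22.69 points above that of all regions in muscle and at -16.95 points in brown adipose tissue, with 33 fasting-only and 142 fed-only regions there. At the endothelial markers it lay 16.52 points above in muscle and at -8.057 points in spleen, with 100 and 115 regions. At the immune cell markers it lay at -30.76 points in muscle, with 5 and 15 regions, at 36.92 points in brown adipose tissue, with 8 and 3, and at 23.35 points in white adipose tissue, with 32 and 15. Each tissue and state had 1 library, and the differences were not tested.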

How the results depend on the processing

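Of the values that answer a comparison, taken over all alternatives, 173 stayed within their counting interval or within 1.5 times the count, 50 moved beyond it and 5 changed sign, and the causes were not tested. The list shares, the local levels, the ratio with thinned fasting-only regions and the regions of both lists were given alternatives chosen after seeing the data. Without replicates, no alternative measures variation between animals.

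The balance of fed-only and fasting-only regions depended on the threshold. At q under 1e-06 there were 15668 fasting-only and 4400 fed-only (log2 ratio 1.832), and among the 50000 strongest regions 509 and 213 (1.257). At p under 1e-05 there were 43014 and 21399 (1.007). At that p, with only the fasting-only regions thinned to the depth of the fed library, there were 20970 and 21399 (-0.02939). The log2 ratio was -0.1564 over all deposited regions, 0.4977 against set regions of the other state and 0.1717 with an overlap of 50% of both lengths, which gave 64457 fed-only regions. The share near a start, fasting-only minus fed-only, was -3.177, -1.095, -7.984 and -2.511 points at q under 1e-06, over all regions, over the 50000 strongest and with the 50% overlap.

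The 5 lists tested kept the sign of their difference from all regions in all 8 alternatives. At q under 1e-06 it was 17.76 points for atrophy, 11.06 for glucocorticoid and -32.02 for muscle marker genes. With the 50% overlap it was 17.09 for atrophy, 12.32 for fuel, 12.66 for glucocorticoid and -10.58 for muscle marker genes. Among the 50000 strongest it was 12.83 for fuel, 9.501 for glucocorticoid and 29.5 for endothelial genes, from 1 to 6 regions a list. At p under 1e-05 it was 21.94 for atrophy genes. With only the fasting-only regions thinned to the depth of the fed library it was 32.85 for atrophy and 29.96 for fuel genes.

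Ranking by fold enrichment gave median promoter shifts of -6.241 points for atrophy, -5.193 for glucocorticoid, -2.408 for fuel, -1.284 for insulin and glucose, -1.709 for clock, -19.82 for immune and 0.8475 for muscle marker genes, and 17.77 for Stpg4, reversed from -21.84. Ranks within the 100000 strongest regions gave 5.271 for heart markers. A promoter window of 1000 bp reversed the shifts of Cldn5 (-5.643), Fgf21 (9.664) and Ptprf (-2.52, from 22.86).

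Within 50 bp of the summit the log2 ratio of motif shares was 0.914 for FOXO, 1.123 for AP-1 and -0.2747 for STAT in fasting-only against fed-only regions, and 2.339 for FOXO, 2.263 for AP-1 and -0.03417 for MEF2 in higher against lower regions. Against the 50000 strongest regions of another tissue, the log2 ratio of the shares overlapped was -0.2997 in liver, 0.3394 in brown and 0.3502 in white adipose tissue, 0.6632 in heart, -0.2585 in kidney, -0.3221 in lung and -1.228 in spleen. The median local fold of fuel genes was 1.159 as reported. Over regions above 1.5 times the lowest level its log2 was -0.005575, a change of sign. Scaled by the local level, 8786 regions of both lists were higher and 6065 lower.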
